A study of Homo sapiens with 4 samples.

Results

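The proteasome genes of 2 anaplastic thyroid cancer (ATC) cell lines and of their paclitaxel-resistant derivatives were examined by RNA sequencing. The genes were selected by their names, as every gene whose symbol is PSMA, PSMB, PSMC, PSMD, PSME, PSMF or PSMG followed by a number, which gave 48 of the 26485 gene names in the tables. SW1736 and 8505C are established human ATC lines, and paclitaxel is a taxane that stabilizes microtubules. The wild-type (wt) cells of each line received no drug. The resistant cells, SW1736-PTX and 8505C-PTX, came from the wt cells after paclitaxel at doses raised from 1 nM to 1.5 µM over 6 months, and were then grown in 1.5 µM paclitaxel. All cells were kept in RPMI-1640 with antibiotic. One mRNA library was sequenced per condition, 4 in all, so selection, continued drug exposure and chance differences between cultures cannot be told apart, and no p-value is given. Neither the labels nor the methods describe the resistant cells as clones.

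The proteasome is the chamber in which cells degrade proteins tagged with ubiquitin. Its 20S core is a stack of rings of alpha and beta subunits, and the proteolytic sites lie on some of the beta subunits. The 19S particle caps the core: a ring of ATPases (PSMC genes) unfolds the substrate, while scaffold, ubiquitin receptor and deubiquitinase subunits (PSMD genes) bind and prepare it. In cells exposed to interferon, the catalytic subunits PSMB5, PSMB6 and PSMB7 are replaced in newly made cores by PSMB8, PSMB9 and PSMB10. The resulting immunoproteasome favours peptides that fit MHC class I molecules. Alternative caps (PSME genes), an inhibitor (PSMF1) and dedicated assembly chaperones (PSMG1 to PSMG4, PSMD5, PSMD9 and PSMD10) complete the set.

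The levels are FPKM (aligned fragments scaled to the length of the gene and the size of the library), which can be compared between genes. A change is log2((PTX + 0.1)/(wt + 0.1)) of the FPKM. It was computed for names above 0.5 FPKM in at least 1 library of a pair, and was called when past 1.5 in either direction, the limits of the study. The libraries held between 43.5 and 57.9 M reads. The total of the 48 genes was 4440 FPKM in wt SW1736 and 3458 in SW1736-PTX, and 4498 in wt 8505C and 2691 in 8505C-PTX. In bulk RNA, fewer cells of a kind and less RNA per cell cannot be told apart.

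The library labelled SW1736-PTX stood apart from its wt library in lineage markers. PAX8, a thyroid transcription factor, was at 38.2 FPKM in wt SW1736 and between 0.123 and 0.206 in the other libraries. NKX2-1, another thyroid factor, was listed at 0 in wt SW1736 and was between 30.5 and 39.0 FPKM in the others. The keratin KRT19 was at 266 FPKM in wt SW1736, at 0.535 in SW1736-PTX and at 0 in both 8505C libraries. Among the thyroid markers, TSHR and SLC5A5 were at 0 in all 4 libraries and TG did not exceed 0.00586 FPKM. The leukocyte markers CD3E and MS4A1 were at 0 in every library, and PTPRC did not exceed 0.0197 FPKM. Among the other leukocyte markers, LAPTM5 did not exceed 0.127 FPKM, CD14 reached 4.50 in 8505C-PTX and CORO1A 3.44 in wt SW1736. Of 4 endothelial markers, 3 stayed at or below 0.281 FPKM, and CDH5 was at 55.9 in wt 8505C, 4.53 in 8505C-PTX, 0.225 in SW1736-PTX and 0 in wt SW1736. Among 5 epithelial markers, KRT8 and KRT18 were between 257 and 1437 FPKM in all libraries and EPCAM and CDH1 did not exceed 0.0806. Because PAX8, NKX2-1 and KRT19 in the SW1736-PTX library were near their levels in 8505C and far from those in wt SW1736, while CDH5 was not, changes of that library are given against wt SW1736 and, where it matters, against wt 8505C as well. The part of this difference in the results was not tested.

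Of the 48 genes, 46 were above 0.5 FPKM in at least 1 library. The missing pair was PSMA8, a testis form of an alpha subunit, and PSMB11, the beta subunit of the thymus, which were listed at 0 in all libraries. At this depth, 3 reads on these genes would correspond to between 0.0280 and 0.0384 FPKM, counting error only. All 46 expressed genes were above 0.5 FPKM in both wt libraries, and 45 were above it in each PTX library. The exception was PSMD5 in both.

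**Figure D1:**
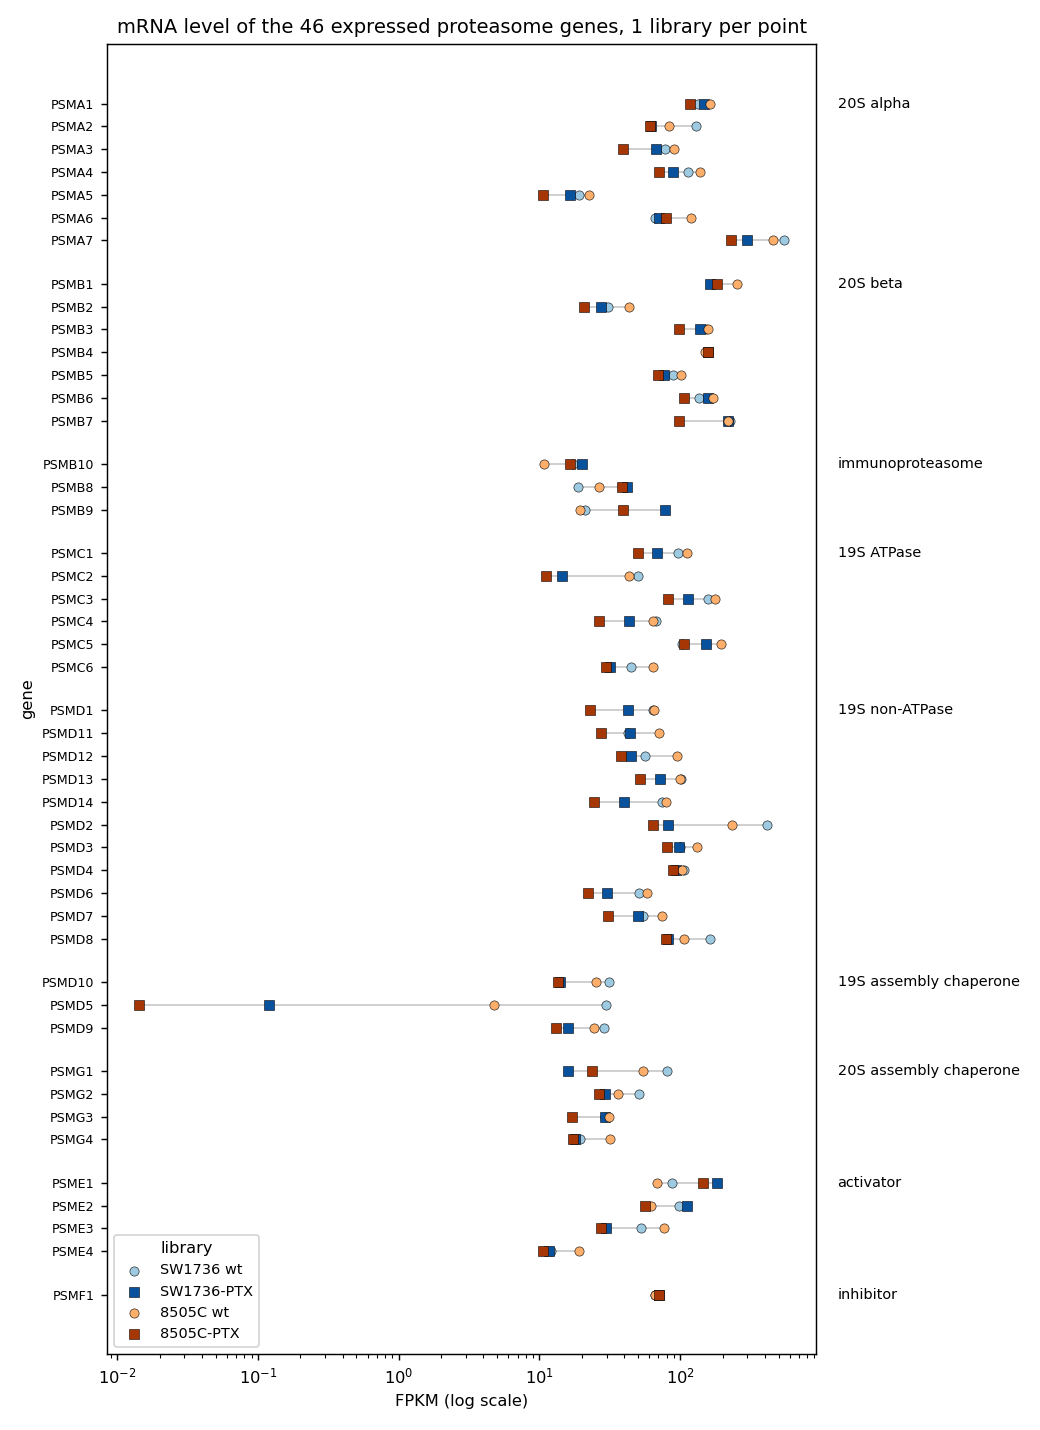
FPKM (log axis) of the 46 expressed proteasome genes in the 4 libraries, grouped by role, with circles for wt and squares for PTX libraries and a grey line from the lowest to the highest library. In 33 genes both squares lie to the left of both circles, and PSMD5 runs from 29.7 FPKM in wt SW1736 down to 0.0143 in 8505C-PTX.

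Proteasome mRNA was lower in the PTX library of each line, more so in 8505C. The median change of the 46 genes was -0.20 in SW1736, where the median of all 14202 names compared was 0.01, and -0.89 in 8505C, where that of all 13794 names was 0.11. Among names above 10 FPKM in either library, as nearly all proteasome genes were, the medians of all names were -0.13 and -0.12. The SW1736-PTX library against wt 8505C gave a median of -0.56 for the proteasome genes and 0.10 for all names. A change below -0.5 was found for 17 of 46 genes in SW1736, or 37.0%, close to the 32% of all names and the 34.9% of names above 10 FPKM. In 8505C it was found for 33 of 46, or 71.7%, where the background was 26.3% of all names and 32.6% of names above 10 FPKM. Against wt 8505C, SW1736-PTX had 24 of 46 below -0.5, or 52.2%, with a background of 25.1%. A change above 0.5 was found for 4 genes in each line, where 33% of all names in SW1736 and 35.3% in 8505C had one.

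Both PTX libraries lay below both wt libraries for 33 of the 46 genes, with a background of 26.5% of names. For 5 genes, PSMB4, PSMB8, PSMB9, PSME1 and PSMF1, both PTX libraries lay above both wt libraries, with a background of 31.6%. The change was lower in 8505C than in SW1736 for 36 of the 46.

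Few genes passed the limit of 1.5. In SW1736 the only call upward was PSMB9, with 15.7% of all names called upward, and the 4 calls downward were PSMC2, PSMD2, PSMD5 and PSMG1, with 10.2% of all names called downward. In 8505C no gene was called upward, with a background of 15%, and the 5 called downward were PSMC2, PSMD1, PSMD2, PSMD5 and PSMD14, with a background of 5.89%. The calls shared by the lines were PSMC2, PSMD2 and PSMD5, all downward. The fall of PSMD5 was known when the set was drawn up. The share of all names called downward in both lines was not computed, so these shared calls have no background beside them. As a share of the 46, the calls downward, PSMD5 included, were below the background in SW1736 and above it in 8505C. The counts are small and include a gene known to fall, so no conclusion is drawn from either difference. Most of the members of the set were shifted in 8505C by an amount that did not reach the limit.

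**Figure D2:**
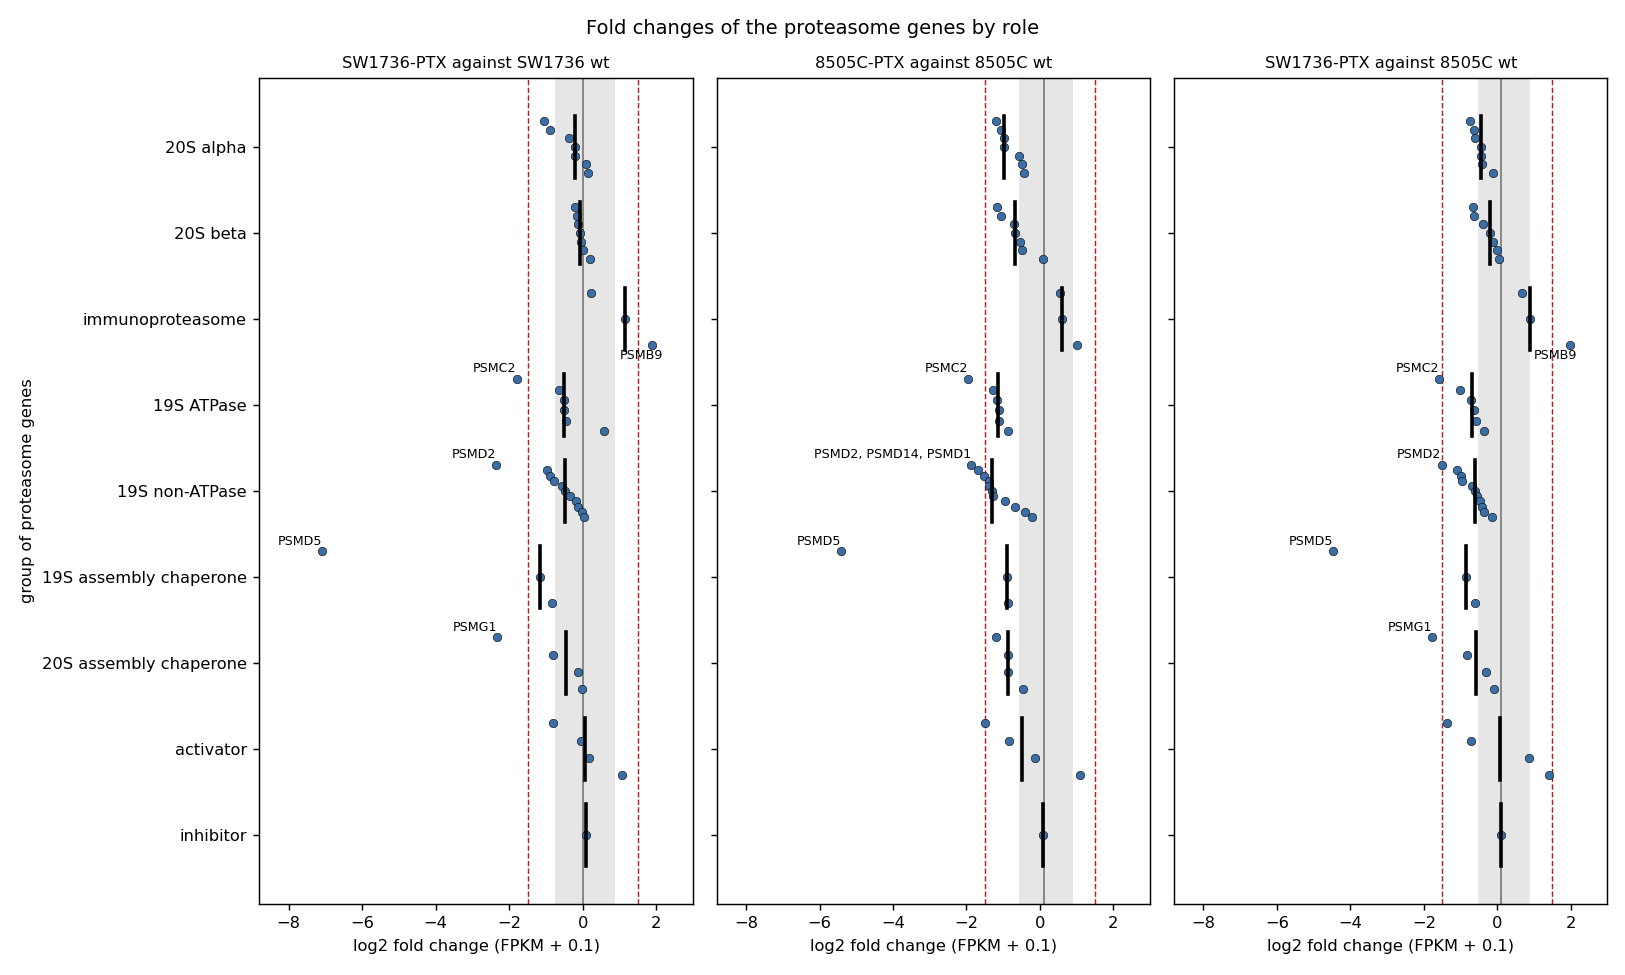
Log2 fold change (x axis, FPKM + 0.1) of each expressed proteasome gene by role for 3 pairs of libraries. Points are genes, black bars the group medians, the grey band and line the middle 50% and the median of all names compared, and dashed lines the limit of 1.5. In all 3 panels PSMD5 lies far to the left and the 3 immunoproteasome genes lie to the right of the median of all names.

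The 14 genes of the 20S core moved little in SW1736 and downward in 8505C, each line against its own wt. The median change was -0.15 in SW1736, with 2 of 14 below -0.5, and -0.70 in 8505C, with 10 of 14 below -0.5. For SW1736-PTX against wt 8505C the median was -0.42, with 5 of 14 below -0.5. PSMA7, an alpha ring subunit and the most abundant core gene in every library, was at 547 FPKM in wt SW1736, 296 in SW1736-PTX, 453 in wt 8505C and 230 in 8505C-PTX. Its levels in the PTX libraries were thus below both wt libraries, by -0.89 and -0.98. PSMA5, the least abundant core gene in every library, had 19.1, 16.4, 22.4 and 10.7 FPKM in these libraries, so mRNAs for subunits of the same complex differed between 18.0-fold and 28.7-fold within a library.

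Among the alpha genes, PSMA2 had the lowest change in SW1736, from 129 FPKM in wt to 62.1 in PTX (-1.05), and the highest in 8505C, from 82.7 to 61.3 FPKM (-0.43). PSMA3 had the lowest change in 8505C, from 90.4 to 39.3 FPKM (-1.20), and went from 78.0 to 67.0 FPKM in SW1736 (-0.22). PSMA1 was the highest in SW1736, at 134 FPKM in wt and 148 in PTX (0.15), and was at 162 and 116 FPKM in 8505C (-0.48). The order of the alpha genes by change therefore differed between the lines.

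Among the beta genes, PSMB4, a structural subunit with no catalytic site, was the steadiest. Its level was 156 FPKM in wt SW1736, 157 in SW1736-PTX, 151 in wt 8505C and 158 in 8505C-PTX. The catalytic subunits changed little in SW1736. PSMB5, which cuts after hydrophobic residues and is the main target of bortezomib, was at 88.4 FPKM in wt SW1736 and 77.2 in PTX (-0.19), and at 101 and 69.6 FPKM in 8505C (-0.54). PSMB6, which cuts after acidic residues, was at 136 and 157 FPKM in SW1736 (0.21) and at 172 and 106 in 8505C (-0.69). PSMB7, which cuts after basic residues, was at 225 and 218 FPKM in SW1736 (-0.04) and at 220 and 98.0 in 8505C (-1.16). PSMB7 was thus at about the same level in 3 libraries and lower in 8505C-PTX.

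The immunoproteasome genes went the other way. PSMB9 was at 21.0 FPKM in wt SW1736, 77.9 in SW1736-PTX, 19.5 in wt 8505C and 39.3 in 8505C-PTX. Its changes were 1.89, which was called, and 1.01, which was not. PSMB8 had 18.9, 41.8, 26.4 and 38.4 FPKM in these libraries, with changes of 1.14 and 0.54. For both genes the wt and PTX libraries did not overlap. PSMB10 was at 17.3 FPKM in wt SW1736, 20.1 in SW1736-PTX, 10.8 in wt 8505C and 16.4 in 8505C-PTX, with changes of 0.22 and 0.60. The wt library of SW1736 lay between the PTX libraries for this gene. Against wt 8505C, the changes of SW1736-PTX were 1.99 for PSMB9, 0.66 for PSMB8 and 0.90 for PSMB10.

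A ratio within a library does not depend on how the library was scaled. PSMB8 over its counterpart PSMB5 was 0.213 in wt SW1736 and 0.541 in SW1736-PTX, and 0.260 in wt 8505C and 0.553 in 8505C-PTX. PSMB9 over PSMB6 was 0.154 and 0.496 in SW1736, and 0.114 and 0.370 in 8505C. PSMB10 over PSMB7 was 0.0766 and 0.0921 in SW1736, and 0.0490 and 0.167 in 8505C. All 3 ratios were below 1 in every library, so the constitutive subunit was the more abundant mRNA throughout, and all 3 were higher in each PTX library than in either wt library. The summed immunoproteasome genes over the summed counterparts gave 0.127, 0.309, 0.115 and 0.344, in the order wt SW1736, SW1736-PTX, wt 8505C and 8505C-PTX. This was 2.43-fold higher in SW1736-PTX and 2.99-fold higher in 8505C-PTX than in the wt library of the line, and 2.69-fold higher in SW1736-PTX than in wt 8505C. In SW1736 the numerator accounted for nearly all of the ratio's change. In 8505C the summed immunoproteasome genes were at 56.6 FPKM in wt and 94.1 in PTX while their counterparts were lower in PTX.

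**Figure D3:**
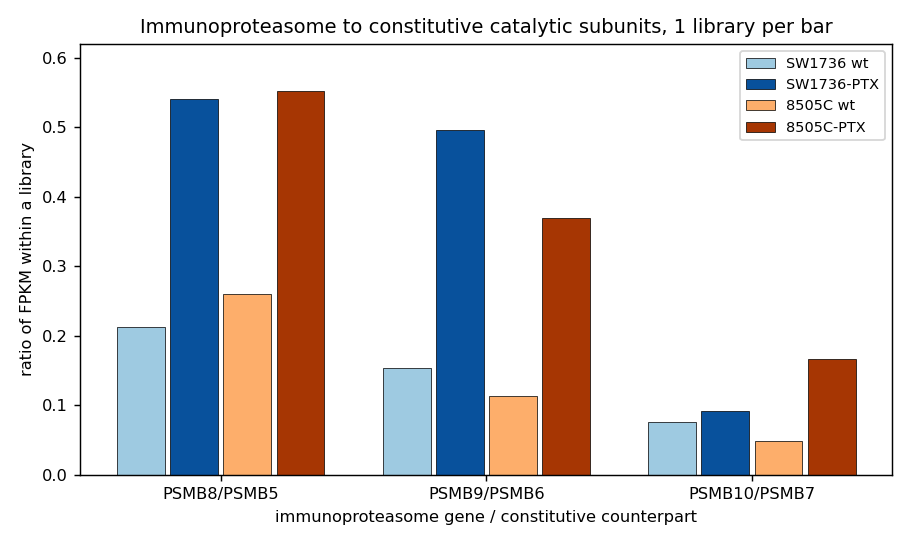
Ratio of FPKM within a library (y axis, from 0) of each immunoproteasome gene to the constitutive subunit it replaces, with 1 bar per library. The dark bars of the PTX libraries exceed the light bars of both wt libraries for all 3 pairs, from 0.0921 for PSMB10/PSMB7 in SW1736-PTX to 0.553 for PSMB8/PSMB5 in 8505C-PTX.

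PSMB9 lies head to head with TAP1, a subunit of the transporter that carries peptides to MHC class I molecules, with 190 bp between the deposited start sites (chr6, build hg38). The bases between the starts, from the RefSeq promoter table (GRCh38.p14), are shown because the starts of both genes flank them. Capitals mark the only match to the core of the antioxidant response element (TGACNNNGC or TGAGNNNGC, searched on both strands), read here from the opposite strand.

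PSMB9 chr6:32853972-32854160, plus strand: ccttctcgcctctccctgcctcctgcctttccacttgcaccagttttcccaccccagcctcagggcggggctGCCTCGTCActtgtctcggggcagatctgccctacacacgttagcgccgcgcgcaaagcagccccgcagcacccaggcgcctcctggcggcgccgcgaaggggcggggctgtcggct

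TAP1 was at 13.7 FPKM in wt SW1736, 47.2 in SW1736-PTX, 16.2 in wt 8505C and 23.6 in 8505C-PTX, with changes of 1.78 and 0.54. The order of the 4 libraries was the same for TAP1 as for PSMB9 except that the wt libraries were exchanged. In a list of 13 class I antigen processing genes, 5 were called upward in SW1736, among them TAP1, TAPBPL, HLA-B and ERAP2, and none downward, with a median change of 0.79. In 8505C, 3 were called upward, among them HLA-B and HLA-C, and TAP2, the partner of TAP1 in the transporter, was called downward (-1.98), with a median of 0.85. The 5 of 13 and 3 of 13 called upward stand beside the 15.7% and 15% of all names called upward.

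Genes of the interferon-gamma response, which raises immunoproteasome genes, were compared as a list. Of 19 listed, 11 could be compared in each line. In SW1736 none was called upward and IFNGR2, a receptor chain, was called downward (-2.00), with a median of -0.12. In 8505C, STAT2, IRF9 and GBP2 were called upward (1.64, 2.45 and 4.07) and the kinase JAK2 downward (-1.65), with a median of 0.37. GBP2 was at 0.0148 FPKM in wt 8505C and 1.83 in 8505C-PTX, so the size of its change depends on the pseudocount of 0.1. The 3 of 11 called upward stand beside 15% of all names, and 9 of the 11 were above 0. The reference mattered here, since against wt 8505C the median of SW1736-PTX was 0.84, where that of all names was 0.10, and IFNGR2 (-1.35) was not past the limit. The interferon-induced chemokines CXCL9 and CXCL10 were listed at 0 in all libraries.

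As a group, the genes of the 19S particle decreased more than those of the core in each line. The median change of the 17 genes was -0.50 in SW1736, with 9 of 17 below -0.5, and -1.27 in 8505C, with 15 of 17 below -0.5 and all 17 below 0. The geometric mean of the 19S genes over that of the core genes was 0.770 in wt SW1736 and 0.590 in SW1736-PTX, and 0.757 in wt 8505C and 0.553 in 8505C-PTX. The wt libraries were alike in this ratio and both PTX libraries were below them. Without PSMC2 and PSMD2, left out after their values were seen, the ratio was 0.716, 0.629, 0.751 and 0.586 in the same order. The 2 genes thus account for part of the change, mainly in SW1736, and a decrease remained in both lines without them.

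Of the 6 ATPases, PSMC2 had the lowest log2 change in both lines. It was at 50.5 FPKM in wt SW1736, 14.4 in SW1736-PTX, 43.2 in wt 8505C and 11.1 in 8505C-PTX. Both PTX libraries were far below both wt libraries, with changes of -1.80 and -1.95, and -1.57 for SW1736-PTX against wt 8505C. PSMC5 had the highest log2 change of the ATPases in both lines, but the sign of its change differed. It was at 103 FPKM in wt SW1736 and 153 in SW1736-PTX (0.57), while wt 8505C had 196 and 8505C-PTX 107 (-0.87). Against wt 8505C, SW1736-PTX was lower too (-0.36). The other 4, PSMC1, PSMC3, PSMC4 and PSMC6, changed by between -0.65 and -0.46 in SW1736 and between -1.27 and -1.10 in 8505C, with both PTX libraries below both wt libraries for each.

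Among the 11 non-ATPase subunits, PSMD2 stood out. This large scaffold of the base docks the shuttle proteins that deliver ubiquitinated substrates. It was at 417 FPKM in wt SW1736, 81.8 in SW1736-PTX, 234 in wt 8505C and 64.1 in 8505C-PTX. In both wt libraries it was the most abundant 19S mRNA, and in both PTX libraries it was not, its place being taken by PSMC5. Its changes were -2.35 and -1.87, and -1.52 for SW1736-PTX against wt 8505C. PSMD1, the other scaffold of the base, was at 63.6 and 42.9 FPKM in SW1736 (-0.57) and at 65.6 and 22.7 in 8505C (-1.53), which was just past the limit.

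PSMD14, the deubiquitinase that removes ubiquitin chains before degradation, was at 74.0 FPKM in wt SW1736, 40.0 in SW1736-PTX, 78.7 in wt 8505C and 24.4 in 8505C-PTX. The change was called in 8505C (-1.68) and not in SW1736 (-0.89), and the wt and PTX libraries did not overlap. PSMD11, a lid subunit that clamps the cap to the core, had the highest change in SW1736, from 42.9 to 44.1 FPKM (0.04), and went from 70.8 to 27.3 FPKM in 8505C (-1.37). Its change in SW1736-PTX against wt 8505C was -0.68. PSMD4, a ubiquitin receptor, had the highest change in 8505C, from 103 to 88.7 FPKM (-0.22), and went from 107 to 93.8 in SW1736 (-0.19). Of the remaining lid subunits, PSMD8 was lower mainly in SW1736 (-0.98 against -0.42 in 8505C), while PSMD3, PSMD6, PSMD7, PSMD12 and PSMD13 changed by between -0.77 and -0.02 in SW1736 and between -1.38 and -0.69 in 8505C.

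**Figure D4:**
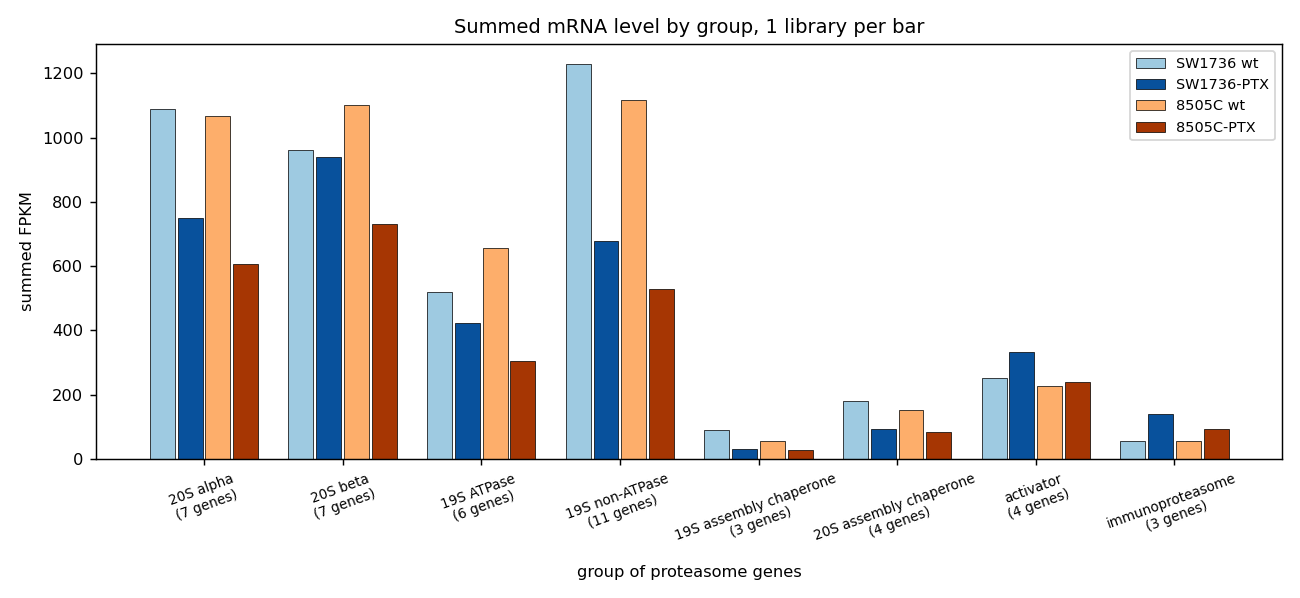
Summed FPKM (y axis, from 0) of each group of proteasome genes, with 1 bar per library. The 19S non-ATPase genes sum to 1230 FPKM in wt SW1736 and 680 in SW1736-PTX and to 1116 and 530 in 8505C, while the immunoproteasome genes sum to 57.1 and 140 FPKM in SW1736 and to 56.6 and 94.1 in 8505C.

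The largest change of the set was in an assembly chaperone of the 19S base. PSMD5 was at 29.7 FPKM in wt SW1736, 0.119 in SW1736-PTX, 4.74 in wt 8505C and 0.0143 in 8505C-PTX. Its level also differed between the wt lines, and it was the only proteasome gene past 1.5 between them. Over the 3381 bp of its main transcript these levels correspond to about 4908, 23, 697 and 3 reads. The level was lower by 249-fold in SW1736-PTX (95% counting interval 168 to 399) and by a ratio of 331 in 8505C-PTX (97.4 to 1390, from about 3 reads). Against wt 8505C, SW1736-PTX was 39.7-fold lower (26.6 to 64.0). These intervals cover counting error only. PSMD5 was known to fall when the set was drawn up, so its changes of -7.08 and -5.40 are a description. From the lowest change upward they ranked 22 of 14202 names in SW1736 and 2 of 13794 in 8505C, and 38 of 13824 for SW1736-PTX against wt 8505C.

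PSMD5 lies on the minus strand of chromosome 9 (chr9:120816054-120843021, hg38), with 10 exons. The long non-coding gene PSMD5-AS1 starts 21 bp away on the opposite strand. PSMD5-AS1 was at 4.48 FPKM in wt SW1736, 0.0355 in SW1736-PTX, 0.0211 in wt 8505C and 0.0112 in 8505C-PTX. It was called downward in SW1736 (-5.08) and was too low to be compared in 8505C, where it was already near 0 in wt while PSMD5 was still expressed. Against wt 8505C, SW1736-PTX was likewise too low to be compared (0.16), so the call in SW1736 depends on the wt SW1736 library. The bases upstream of PSMD5, from the RefSeq promoter table (GRCh38.p14), are shown because they reach from the PSMD5 start across that of PSMD5-AS1. Capitals mark the motif TCTCGCGAG, which was looked for after the sequence had been seen and which lies between the start sites.

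PSMD5 chr9:120843022-120843172, minus strand: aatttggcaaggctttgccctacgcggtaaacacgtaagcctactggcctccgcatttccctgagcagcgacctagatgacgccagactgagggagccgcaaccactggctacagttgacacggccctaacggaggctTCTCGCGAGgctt

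TCTCGCGAG occurred in 0.721% of the 27305 promoter windows (250 bp before to 50 bp after a gene's start), in 1.39% of the 10382 windows whose gene passed 0.5 FPKM in any library, and in no other proteasome window than that of PSMD5. The stretch of 151 bases holds 11 CpG sites. No methylation was measured.

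No gene around PSMD5, PSMD5-AS1 aside, fell by a similar amount. Of these genes within 1 Mb, 13 were compared in SW1736, with 7 above 0, none called downward and a median of 0.22 (all names 0.01). The 3 called upward were GSN, STOM and DAB2IP, with 15.7% of all names called upward. Against wt 8505C they were at 2.39, 1.90 and -0.18. In 8505C, 12 were compared, none was called in either direction, and the median was -0.44 (all names 0.11). With 10.2% of all names called downward in SW1736 and 5.89% in 8505C, the lack of a downward call among so few genes says little. The closest compared genes on either side were LOC100288842, at -0.46 in SW1736 and -1.37 in 8505C, and PHF19, at -1.01 and -1.37.

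**Figure D5:**
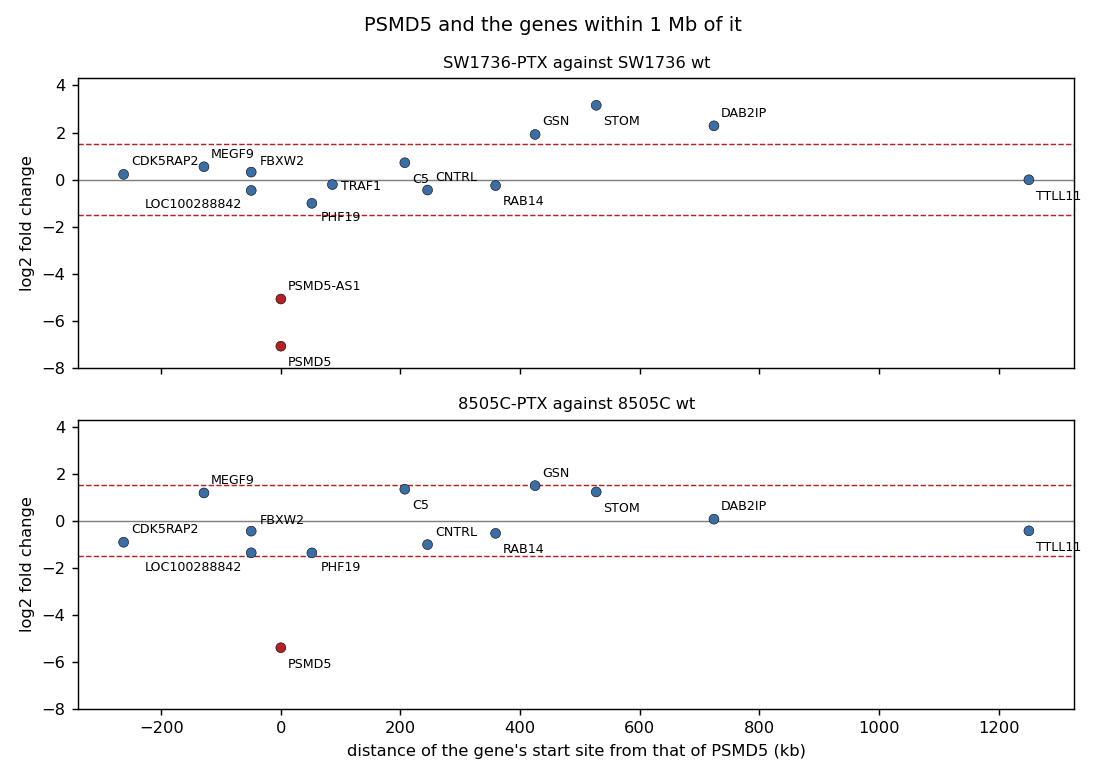
Log2 fold change (y axis) of PSMD5, PSMD5-AS1 (red) and the other compared genes within 1 Mb (blue) against the distance of their start sites from that of PSMD5 in kb, for each line, with dashed lines at the limit of 1.5. PSMD5 lies at -7.08 and -5.40, while no other gene except PSMD5-AS1 in SW1736 lies below -1.5.

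The chaperones of the 19S base each hold particular ATPases during assembly. As background, PSMD5 binds PSMC2, in a module with PSMC1 and PSMD2. PSMD10 (gankyrin) binds PSMC4 beside PSMC5, and PSMD9 binds the pair PSMC3 and PSMC6. The following comparison by module was made after the values had been seen. PSMD5 gives the module its name and was known to fall, so of the 3 genes called in both lines only PSMC2 and PSMD2 add to it. The remaining member, PSMC1, was at 96.7 FPKM in wt SW1736, 67.9 in SW1736-PTX, 112 in wt 8505C and 50.0 in 8505C-PTX (-0.51 and -1.16). PSMC3, PSMC4 and PSMC6, outside the module, changed by similar amounts, between -0.65 and -0.46 in SW1736 and between -1.27 and -1.10 in 8505C. PSMC5, also outside it, was higher in SW1736-PTX (0.57) and had the smallest decrease of the ATPases in 8505C (-0.87). Whether the module changed as a unit was not tested. PSMD10 had 31.1, 14.0, 25.4 and 13.6 FPKM in these libraries (-1.15 and -0.90). PSMD9 was at 28.9, 16.0, 24.4 and 13.2 FPKM (-0.85 and -0.88). Both of these chaperones were thus lower in both PTX libraries than in both wt libraries, by similar amounts in the 2 lines, without being called.

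The chaperones of the 20S core act as pairs, PSMG1 with PSMG2 and PSMG3 with PSMG4, on the growing alpha ring. PSMG1 was at 80.2 FPKM in wt SW1736, 15.9 in SW1736-PTX, 54.7 in wt 8505C and 23.7 in 8505C-PTX. Its change was called in SW1736 (-2.32) and not in 8505C (-1.20). Its partner PSMG2 had 50.6, 29.1, 36.1 and 26.3 FPKM in these libraries (-0.80 and -0.46). In each line the change of PSMG1 was the lower of the pair. PSMG3 was at 29.4, 29.2, 31.0 and 17.0 FPKM (-0.01 and -0.86) and PSMG4 at 19.4, 17.9, 31.7 and 17.3 FPKM (-0.12 and -0.87). The second pair was thus steady in SW1736 and lower in 8505C, each line against its own wt. SW1736-PTX against wt 8505C changed by -0.09 for PSMG3 and by -0.82 for PSMG4. POMP, a further chaperone of the core that the naming rule does not include, was at 49.4, 20.7, 62.1 and 16.0 FPKM (-1.25 and -1.95, called in 8505C).

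The activators went in different directions. PSME1 was at 86.9 FPKM in wt SW1736, 181 in SW1736-PTX, 68.2 in wt 8505C and 146 in 8505C-PTX. Both PTX libraries were above both wt libraries, by 1.06 and 1.10. PSME2, whose product forms a mixed ring with that of PSME1, was at 98.8 and 111 FPKM in SW1736 (0.17) and at 61.5 and 55.9 in 8505C (-0.14). The ratio of PSME1 to PSME2 was accordingly 0.880 in wt SW1736, 1.63 in SW1736-PTX, 1.11 in wt 8505C and 2.61 in 8505C-PTX. PSME3, which forms a nuclear cap by itself, was at 52.6 and 29.9 FPKM in SW1736 (-0.81) and at 77.3 and 27.3 in 8505C (just inside the limit of 1.5 and not called). PSME1 over PSME3 was 1.65 and 6.07 in SW1736, and 0.882 and 5.34 in 8505C. PSME4, a cap of a single large protein and the least abundant of the 4 in every library, changed by -0.04 and -0.85. The inhibitor PSMF1 was nearly constant, at 66.5, 71.1, 66.7 and 70.2 FPKM in the 4 libraries.

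The promoter windows of 6 members hold a match to the interferon-stimulated response element, searched on both strands as GAAA followed by any 2 bases and GAAA again. The 26 bases around each match are shown, from RefSeq (GRCh38.p14), because they allow genes that were higher in PTX to be set beside genes that were not. Capitals mark the match, and for PSME1 it is read from the opposite strand.

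PSMB10 chr16:67936854-67936879, minus strand: gtaaaggcGAAAGCGAAAgcaggaag
PSME1 chr14:24136191-24136216, plus strand: cctaccgcTTTCGCTTTCccttcgcg
PSME2 chr14:24146621-24146646, minus strand: tggggagtGAAAGCGAAAgcccgggc
PSMG4 chr6:3258906-3258931, plus strand: ccggggccGAAAGCGAAAgcgcgctc
PSMA4 chr15:78540157-78540182, plus strand: agtgaagaGAAAATGAAAggagagcg
PSMB4 chr1:151399497-151399522, plus strand: gtctacagGAAAAAGAAAgaaatgac

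PSMB10, PSME1, PSME2 and PSMG4 hold the same 10 letters. Their changes in SW1736 and 8505C were 0.22 and 0.60, 1.06 and 1.10, 0.17 and -0.14, and -0.12 and -0.87, so genes with the same element went in different directions. The windows of PSMB8 and PSMB9 hold no match. The element was present in 15.4% of the 39 proteasome windows that lay within 500 bp of the deposited start and in 3.65% of all windows, or 2.91% of the 10382 windows of genes above 0.5 FPKM in at least 1 library. The antioxidant response element core was present in 51.3% of the proteasome windows, in 29.4% of all windows and in 32.7% of those of expressed genes. It was found in PSMD5, PSMD1, PSMD14 and PSMG1 of the genes called downward, and also in PSMB9 and PSME1. The CCAAT box, on either strand, was present in 46.2% against 35.7% and 36.9%. The median GC content was 62% in the proteasome windows and 58.3% in all windows, with medians of 22 and 14 CpG sites. Matches are a description of the letters and no evidence of binding.

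Factors known to act on proteasome genes did not follow a common direction. NFE2L1, which raises proteasome transcription when proteasome activity is short, was at 42.4 FPKM in wt SW1736, 114 in SW1736-PTX, 92.5 in wt 8505C and 126 in 8505C-PTX (1.43 and 0.44). It was thus higher in both PTX libraries than in both wt libraries, in the direction opposite to most proteasome genes, without being called. The size of the change in SW1736 depended on the reference. NFE2L1 was higher in wt 8505C than in wt SW1736 by 1.12, and SW1736-PTX against wt 8505C changed by 0.31. DDI2 and NGLY1, which process the NFE2L1 protein to its active form, changed by -0.41 and -0.69 in SW1736 and by -0.84 and -0.72 in 8505C. Of the 12 regulators listed, MAFF, a small MAF protein that pairs with NFE2L factors, was called upward in SW1736 (2.42) and FOXO4 in 8505C (2.93). In SW1736-PTX against wt 8505C, both MAFF (1.84) and FOXO4 (2.37) were past the limit. The median of the list was 0.45 in SW1736 and 0.21 in 8505C.

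Genes of other large complexes were compared as a frame for the size of these changes. The median change of the 8 subunits of the CCT chaperonin, a ring that folds tubulin and actin, was -0.35 in SW1736 and -1.33 in 8505C, with all 8 below -0.5 in 8505C. For the 9 subunits of the COP9 signalosome, which is related in architecture to the proteasome lid, the medians were -0.34 and -0.61. For the 13 subunits of eIF3, a translation initiation factor built on the same plan, they were -0.27 and -0.08. 8505C thus had a larger decrease than SW1736 in CCT, COP9 and the proteasome, each line against its own wt, and not in eIF3. With wt 8505C as the reference, the medians of SW1736-PTX were -1.09 for CCT, -0.71 for COP9, 0.03 for eIF3 and -0.56 for the proteasome. For COP9 the decrease was then no longer larger in 8505C. The 10 proteasome-associated proteins outside the naming rule had medians of -0.50 and -0.77, and among them UCHL5, a deubiquitinase of the 19S particle, was called downward in 8505C (-2.14) and SHFM1, a small lid subunit, in SW1736 (-1.75). The 13 genes for free ubiquitin and ubiquitin shuttles had medians of -0.02 and -0.41.

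The 2 resistant libraries were closer to each other in proteasome mRNA than either was to its wt library. Over the 46 genes, the mean absolute log2 difference was 0.411 between SW1736-PTX and 8505C-PTX and 0.419 between the wt libraries, while it was 0.713 between the SW1736 libraries and 1.02 between the 8505C libraries. Pearson's r of the log2 levels over the same genes, which are not independent replicates, was 0.979 between the PTX libraries and 0.886 between the wt libraries. These values include PSMD5, which differed by -2.62 between the wt libraries and by -0.94 between the PTX libraries. The order of 0.411 and 0.419 therefore depends on this gene. Pearson's r depends on it too, as PSMD5 lay far below the other genes in both PTX libraries. Over all 14692 names above 0.5 FPKM in at least 1 library, the PTX libraries were the closest pair, with a mean difference of 0.557. It was 0.967 between the wt libraries, 1.24 between the SW1736 libraries and 0.982 between the 8505C libraries. Between SW1736-PTX and wt 8505C it was 0.971, so SW1736-PTX was nearer to wt 8505C than to wt SW1736 by this measure. Over the 46 proteasome genes, SW1736-PTX and wt 8505C differed by 0.762. Pearson's r was 0.837 for that pair and 0.666 between the SW1736 libraries. Between the wt lines only PSMD5 differed by more than 1.5, with 17.6% of all names past this limit. Between the PTX lines none of 45 did, with a background of 7.79%.

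Some of the measurements are uncertain at the level of the locus. GENCODE release 44 names 44 pseudogenes after 17 of the members, 13 of them after PSMC1 and 6 after PSME2, and none has a row of its own in the deposited tables. How reads matching several places were treated is not given in the sources used here. The loci of 11 members overlap another listed gene, among them PSMC2 with SLC26A5 and PSMD1 with HTR2B, both listed at 0 in all libraries, and PSMC5 with FTSJ3 over 262 bp. The setting for strand is not given either, so reads of such partners cannot be told apart.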

How the data were processed

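One mRNA library (75 bp single-end reads, Universal Plus mRNA-Seq kit) was sequenced for each of SW1736 wt, SW1736-PTX, 8505C wt and 8505C-PTX. The authors converted reads with bcl2fastq 2.20, removed adapters and low-quality bases, aligned to hg38 with STAR and quantified loci with StringTie. Per the file headers, the deposited coverage is the mean read depth per base, a signal not scaled to library size, the deposited FPKM is scaled to gene length and aligned fragments, and the deposited TPM to an equal total per library. Read counts were not among the columns, which left count models aside, and with 1 library per condition no statistical test between conditions was made.

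FPKM of rows sharing a name were summed, and log2 ratios were computed with a pseudocount of 0.1, which understates changes of low genes. Names above 0.5 FPKM in at least 1 library of a pair were compared. Depth (43.5 to 57.9 M reads) came from the ratio of coverage to FPKM, and reads per gene from FPKM, depth and GENCODE 44 transcript length, with exact Poisson intervals at 95%. Promoter windows came from RefSeq (GRCh38.p14). Of the 48 genes 42 matched, 39 of them within 500 bp of the deposited start. Named with values in each library were called genes, PSMD5, the immunoproteasome genes with their counterparts, and the extremes of each group, and others were chosen after their values were seen. Some listed genes are not reported here. Members and lists were chosen with earlier results of these data known. Alternatives changed the unit, pseudocount, filter, centring, repeated names, limit, reference library and scaling. The calling step was tested on simulated data with counting error only, which leaves out variation between cultures. Python 3.11.15, NumPy 2.4.6, pandas 2.3.3, SciPy 1.17.1 and matplotlib 3.10.9 were used.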

Additional observations from a re-analysis of the deposited data

Results flagged for a closer look

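PSMC5, an ATPase of the 19S ring, changed in opposite directions in the lines. Its log2 fold change was 0.57 in SW1736, from 103 to 153 FPKM, and -0.87 in 8505C, from 196 to 107 FPKM. With 1 library per condition the difference was not tested. The wt libraries themselves differed in PSMC5 by 0.93 on the log2 scale (8505C over SW1736), and the SW1736-PTX library was lower than 8505C wt, by -0.36.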

How the results depend on the processing

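The direction of the PSMD5 changes, their place past the limit and the rise of the immunoproteasome ratio held in both lines under every alternative that gave a value. With FPKM above 0.5 required in both libraries, PSMD5 gave no value. With a limit of 1 in place of 1.5, 9 proteasome genes were called in SW1736 and 21 in 8505C, in place of 5 and 5. With a limit of 0.5 there were 21 and 37, of which 17 and 33 downward. Of all names, 32% in SW1736 and 26.3% in 8505C were below -0.5, and 33% and 35.3% were above 0.5. Between the wt lines a limit of 0.5 gave 16 genes in place of 1, and between the PTX lines limits of 1 and 0.5 gave 1 and 15 in place of 0. The share of all names was not computed at a limit of 1, nor between the lines at 0.5. Those counts therefore have no background beside them. Expressed as a share of the summed proteasome FPKM of its library, which removes a common shift by construction, the median change was 0.16 in SW1736, reversed from -0.20, and -0.15 in 8505C, where 3 genes were called, of which 1 downward. On that scale PSMB9 was past the limit in 8505C too (1.75), while PSMC2 was not past it in either line, nor PSMD1, PSMD2 and PSMD14 in 8505C. PSMD1 in 8505C was also inside the limit with a pseudocount of 1 (-1.49). With 8505C wt as the reference for SW1736-PTX, the median was -0.56 and the log2 change of the immunoproteasome ratio 1.43, in place of 1.28. TPM in place of FPKM moved the median of all names by less than 0.1 on the log2 scale. A fit over both lines with the line as a block was not made. Reads were estimated only for PSMD5 and for PSMA8 and PSMB11, which were listed at 0. PSMD5 rested on about 3 reads in 8505C-PTX and about 23 in SW1736-PTX. The variation between cultures is unknown.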
